A study of Homo sapiens with 12 samples.

Results

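The genes described here are the subunits of the transcription factor NF-kB and genes that NF-kB is known to induce, most of which inhibit it. They were chosen by gene symbol from the table of read counts: NFKB1, NFKB2, REL, RELA, RELB, NFKBIA, NFKBIE, TNFAIP3, TNFAIP2 and BCL3. All 10 were found, out of 32077 genes in the table. RNA-seq was carried out on poly(A) RNA of PC3 and DU145, a pair of lines from human prostate cancer that do not need androgen. The cells were kept for 48 hours with 2.5 μM pentamidine, a cationic diamidine drug used against protozoa, or with vehicle. The 4 groups were vehicle-treated PC3, pentamidine-treated PC3, vehicle-treated DU145 and pentamidine-treated DU145, with 3 samples in each and 12 in all. The question asked of these genes is how their transcript levels stood in each line and how far they differed after the drug.

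NF-kB proteins bind DNA as dimers that are held in the cytoplasm by IkB proteins until a signal from a receptor such as that of TNF activates the IKK complex, which marks the IkB for destruction. The freed dimers enter the nucleus and induce cytokine, survival and adhesion genes, and with them some subunits and the inhibitors that end the signal, so transcripts of the inhibitors are widely read as a sign of pathway activity. Constitutive NF-kB activity is well known in androgen-independent prostate cancer lines.

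Of the 10 genes, 5 encode subunits and 3 encode inhibitors, so 8 are subunits or inhibitors. The other 2 are induced by the pathway but fit those words less well. BCL3 encodes an IkB-like protein that acts in the nucleus with DNA-bound dimers, and TNFAIP2 was named for its induction by TNF and is not known as an inhibitor of the pathway. The results below are ordered by these roles.

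The names PC3 and DU145 are those that the libraries carry, and some marker genes went against them. CTNNA1, known to be deleted in PC3, had 6003 to 8545 counts in the libraries labelled PC3, against 5533 to 5932 in those labelled DU145. EPCAM had 0 to 1 counts in PC3 and 0 to 2 in DU145, and CDH1, which encodes E-cadherin, had 0 to 1 and 1 to 10, so that these defining epithelial markers were at or near 0 in all 12 libraries. Keratin transcripts were present, and all but KRT8 in PC3 (log2 fold change -0.22, edgeR adjusted p = 0.0868) passed the test of a drug effect. KRT8 had 286 to 307 counts with vehicle and 238 to 267 with pentamidine in PC3, and 37461 to 38812 and 25835 to 26744 in DU145, where it fell by 0.56 on the log2 scale (edgeR adjusted p = 1.9e-23). KRT18 had 2125 to 2320 and 2654 to 3085 counts in PC3, where it rose by 0.35 (adjusted p = 6.0e-04), and 11991 to 13423 and 9962 to 10089 in DU145, where it fell by 0.39 (1.1e-15). EPCAM and CDH1 were this low in all 12 libraries, and CTNNA1 was present in all 6 labelled PC3, so no comparison could be repeated without these libraries.

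Markers of prostate luminal cells, which depend on androgen signalling, were at or near 0 for KLK3 (0 to 2 counts in PC3, 0 to 1 in DU145) and KLK2 (0 to 1 and 0 to 3). Little RNA of other cell types was seen. The immune markers PTPRC and CD14 had 0 and 2 to 8 counts in PC3, and 0 to 1 and 1 to 5 in DU145. The summed level of 4 fibroblast markers lay between 0.270 and 3.14 CPM in every sample, and that of 3 endothelial markers between 0.0709 and 1.15.

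Total counts per sample were even. They were 14610424, 15131436 and 13514195 in vehicle-treated PC3, 14717776, 14086950 and 14791260 in pentamidine-treated PC3, 13798818, 14670705 and 14906017 in vehicle-treated DU145 and 13891795, 14576040 and 14190864 in pentamidine-treated DU145. At this depth the lowest count of any member in any sample was 64, for BCL3 in pentamidine-treated PC3, and all 10 passed the filter on low counts in all comparisons. Within a group, pairs of samples differed by more than counting error alone (mean chi-square per gene 1.72 to 7.30), and the pairs among vehicle-treated PC3 differed most, at 3.64 to 7.30.

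The subunits are encoded by 5 genes, placed here by the identifiers and GRCh38 positions of the count table. NFKB1 (ENSG00000109320, chr4:102501329-102617302 on the plus strand) encodes p105, the precursor of p50, which pairs with RELA in the best known dimer. NFKB2 (ENSG00000077150, chr10:102394110-102402529 on the plus strand) encodes p100, the precursor of p52, which also works as an inhibitor before it is cut. REL (ENSG00000162924, chr2:60881521-60931610 on the plus strand) encodes c-Rel, known best from lymphocytes. RELA (ENSG00000173039, chr11:65653596-65663094 on the minus strand) encodes p65, the subunit that carries most of the activating power, and RELB (ENSG00000104856, chr19:45001430-45038198 on the plus strand) encodes the partner of p52 in the non-canonical branch.

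Among the inhibitors, NFKBIA (ENSG00000100906, chr14:35401511-35404749 on the minus strand) encodes IkB alpha, which is rebuilt quickly after each round of activation. NFKBIE (ENSG00000146232, chr6:44258166-44265788 on the minus strand) encodes IkB epsilon, a slower relative. TNFAIP3 (ENSG00000118503, chr6:137867188-137883312 on the plus strand) encodes A20, a ubiquitin-editing enzyme that restrains signalling ahead of the IKK complex. BCL3 lies at chr19:44747705-44760044 on the plus strand (ENSG00000069399). TNFAIP2 lies at chr14:103123442-103137439 on the plus strand (ENSG00000185215) and encodes a protein related to exocyst subunits.

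The promoters of the members were read from RefSeq (GRCh38.p14), as 300 bases running from 250 before the transcription start to 50 from the start on. Of the 10 members, 8 had an entry (all but RELB and NFKBIE), with 12 windows in all. The kappa B consensus, the 10-letter motif bound by NF-kB dimers, was searched on both strands. It was found in the windows of 6 of these 8 members, namely NFKB1, NFKB2, REL, NFKBIA, TNFAIP3 and BCL3, and in no window of RELA or TNFAIP2. Of all 35116 windows 11.3% held it, and of the 27305 genes with a window 13.3% did. Among the other induced targets described below, 19 of the 29 with a window held it. The windows of NFKBIA (chr14:35404700-35404999, minus strand), TNFAIP3 (chr6:137867009-137867308, plus strand), NFKB1 (chr4:102501109-102501408, plus strand, the first of its 2 windows) and TNFAIP2 (chr14:103123211-103123510, plus strand) are printed 5′ to 3′ in the direction of the gene, with the bases of each match in capitals.
NFKBIA: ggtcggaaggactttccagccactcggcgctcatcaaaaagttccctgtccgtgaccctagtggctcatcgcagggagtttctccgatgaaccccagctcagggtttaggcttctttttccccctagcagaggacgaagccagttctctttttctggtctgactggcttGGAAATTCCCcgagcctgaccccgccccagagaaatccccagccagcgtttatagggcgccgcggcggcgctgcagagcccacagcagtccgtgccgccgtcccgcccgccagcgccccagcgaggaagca
TNFAIP3: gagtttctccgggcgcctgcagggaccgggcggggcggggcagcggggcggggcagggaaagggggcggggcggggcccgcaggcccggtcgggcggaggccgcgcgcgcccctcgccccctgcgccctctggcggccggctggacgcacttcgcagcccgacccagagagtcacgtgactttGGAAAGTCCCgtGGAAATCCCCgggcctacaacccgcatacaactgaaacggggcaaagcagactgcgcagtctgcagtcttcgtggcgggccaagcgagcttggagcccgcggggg
NFKB1: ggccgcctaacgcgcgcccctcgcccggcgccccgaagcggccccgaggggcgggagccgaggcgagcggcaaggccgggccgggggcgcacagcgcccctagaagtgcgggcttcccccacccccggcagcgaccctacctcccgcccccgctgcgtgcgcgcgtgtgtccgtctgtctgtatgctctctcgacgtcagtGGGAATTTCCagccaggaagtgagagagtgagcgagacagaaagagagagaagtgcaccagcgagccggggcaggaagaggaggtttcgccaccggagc
TNFAIP2: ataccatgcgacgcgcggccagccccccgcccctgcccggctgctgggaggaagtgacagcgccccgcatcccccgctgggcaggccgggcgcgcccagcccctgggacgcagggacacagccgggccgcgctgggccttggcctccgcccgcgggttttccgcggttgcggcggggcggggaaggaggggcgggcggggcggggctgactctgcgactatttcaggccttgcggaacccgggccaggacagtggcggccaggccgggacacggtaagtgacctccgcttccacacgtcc
Counting the start as position 0, the match of NFKBIA begins at -81 and those of TNFAIP3 at -67 and -55, all on the strand opposite to the gene. That of NFKB1 begins at -49 on the strand of the gene. In REL a pair of overlapping matches begins at -47 and -46, and in BCL3 the match at 2 reads on both strands and lies past the start. A match describes the letters only, and its absence says only that they are not in this window. The first of the 2 RELA windows lies upstream of the gene position given above, and its last bases were in no RELA transcript of GENCODE 29.

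Before any drug, the members stood at very different levels. Divided by the length of all exons of the gene in GENCODE 29, the level of NFKBIA in vehicle-treated DU145 was 95.5 ± 2.33 CPM per kb (mean ± SD, n = 3), the highest of the 10, followed by NFKB2 at 51.7 ± 1.201 and RELA at 34.1 ± 0.996 CPM per kb. The lowest were BCL3 at 3.04 ± 0.119 and REL at 1.68 ± 0.232 CPM per kb. Between them came RELB (16.8 ± 0.636), NFKB1 (16.6 ± 0.399), NFKBIE (7.87 ± 0.668), TNFAIP3 (7.55 ± 0.233) and TNFAIP2 (4.17 ± 0.235 CPM per kb). In this order the samples of RELB overlapped those of NFKB1, and those of NFKBIE overlapped those of TNFAIP3, while all other neighbours were apart.

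In vehicle-treated PC3 the same 3 genes led on this scale, with NFKBIA at 31.1 ± 2.49, NFKB2 at 26.8 ± 1.52 and RELA at 23.5 ± 1.35 CPM per kb. NFKB1 (11.1 ± 0.517), TNFAIP2 (10.2 ± 0.406), NFKBIE (9.13 ± 1.42) and RELB (7.82 ± 1.03 CPM per kb) followed, and of these TNFAIP2 and NFKBIE overlapped, as did NFKBIE and RELB. TNFAIP3 at 2.64 ± 0.165 overlapped BCL3 at 2.22 ± 0.280, and REL was lowest at 1.25 ± 0.147 CPM per kb. The count of REL is uncertain, because 43.3% of its exon length is shared with the transcript AC010733.2 on the same strand.

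After pentamidine the order changed at the top. In DU145, NFKB2 stood first at 34.3 ± 1.44 CPM per kb, above NFKBIA at 30.8 ± 0.288 and RELA at 30.7 ± 0.935, whose samples overlapped. In PC3, RELA at 24.1 ± 1.37 and NFKB2 at 23.4 ± 1.05 overlapped and both stood above NFKBIA at 17.7 ± 0.453 CPM per kb. NFKBIA thus led both vehicle groups and neither treated group. TNFAIP2 held the fourth place in treated PC3 at 14.1 ± 0.660 and the ninth in treated DU145 at 1.57 ± 0.191 CPM per kb.

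**Figure D1:**
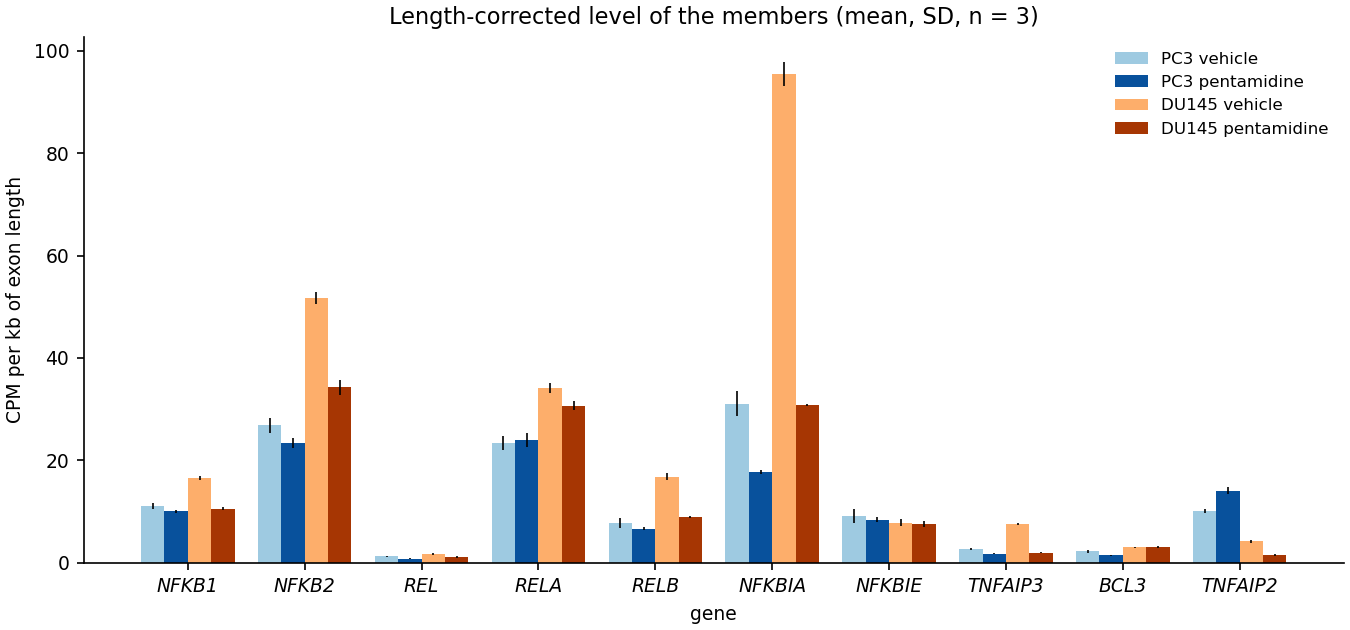
Bars give the mean CPM per kb of exon length of each member in the 4 groups, with the SD of 3 samples as error bars. NFKBIA is the highest bar in both vehicle groups, at 95.5 in DU145 and 31.1 in PC3, and in neither pentamidine group.

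Most members were less abundant in vehicle-treated PC3 than in vehicle-treated DU145. Tested with edgeR and adjusted over all genes by the method of Benjamini and Hochberg, 8 of the 10 were lower in PC3, 1 was higher and 1 did not pass, where passing means an adjusted p below 0.05. Of all 14394 genes tested, 33.8% were lower and 31.5% were higher in PC3, so a difference between the lines was common. Past an absolute log2 fold change of 1 as well, 3 members were lower and 1 was higher, against 11.7% and 7.52% of all genes. The median log2 fold change, PC3 over DU145, was -0.59 for the members and -0.010 for all genes tested.

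NFKBIA and TNFAIP3, the inhibitors best known as feedback genes, were far apart between the lines. NFKBIA stood at 80.6, 70.5 and 70.1 CPM in vehicle-treated PC3 and 224, 223 and 233 CPM in vehicle-treated DU145, a log2 fold change of -1.64 (SE 0.058, adjusted p = 4.0e-13). TNFAIP3 stood at 14.3, 12.7 and 13.1 CPM in PC3 and 39.4, 38.02 and 37.1 CPM in DU145, a log2 fold change of -1.54 (SE 0.083, adjusted p = 8.6e-11). In both genes every DU145 sample was more than double any PC3 sample. The subunit genes followed in the same direction with log2 fold changes of -1.13 for RELB (adjusted p = 6.4e-09), -0.97 for NFKB2 (6.7e-11), -0.61 for NFKB1 (5.8e-08), -0.56 for RELA (6.8e-08) and -0.44 for REL (0.00300). BCL3 was also lower in PC3, at -0.48 (adjusted p = 0.00504).

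TNFAIP2 ran the other way. Its levels were 53.5, 49.6 and 50.6 CPM in vehicle-treated PC3 and 19.7, 22.1 and 21.04 CPM in vehicle-treated DU145, a log2 fold change of 1.26 (SE 0.073, adjusted p = 2.3e-10), with no overlap. NFKBIE was the member that did not pass, at 0.19 (95% interval -0.040 to 0.42, adjusted p = 0.136). Scaled by library size alone it passed, at 0.27 (adjusted p = 0.0413, range over its alternatives 0.0413 to 0.599). The vehicle samples of this comparison also serve as the controls of the drug comparisons, and no batch was given in the sources used here.

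**Figure D2:**
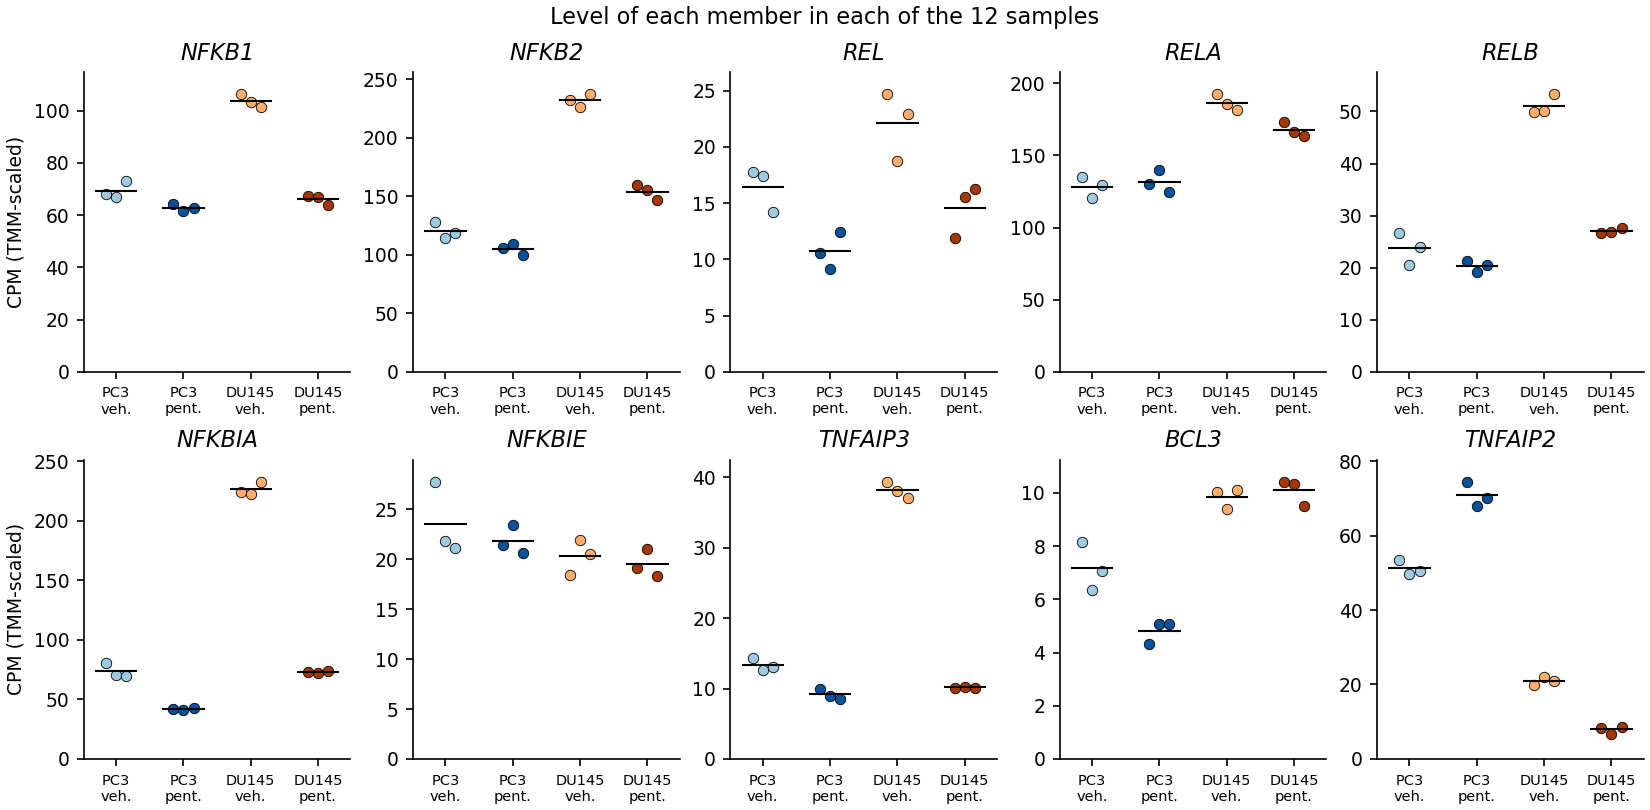
Each panel gives the CPM of a member, on library sizes scaled by TMM, in each of the 12 samples, with a line at the mean of the 3 samples of a group. NFKBIA and TNFAIP3 are lower after pentamidine in both lines, and TNFAIP2 is higher in treated PC3 and lower in treated DU145.

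After pentamidine, most of these genes fell in DU145, and fewer passed the test in PC3. The inhibitors NFKBIA and TNFAIP3 and the subunits NFKB2 and REL fell in both lines. In PC3, 5 of the 10 members fell (NFKB2, REL, NFKBIA, TNFAIP3 and BCL3), TNFAIP2 rose and 4 did not pass. Of all 13861 genes tested in PC3, 21.7% fell and 21.7% rose. No member changed past an absolute log2 fold change of 1, where 1.31% of all genes fell and 3.44% rose. The members' median log2 fold change was -0.21, against 0.0046 for all genes tested. Without pentamidine-treated PC3 sample 3 the number that fell was 4, and without vehicle-treated PC3 sample 2, or with library size alone as the scaling, it was 6.

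In DU145, 8 of the 10 members fell, none rose, and NFKBIE and BCL3 did not pass. With library size alone 7 fell, RELA being the member lost. Of all 14313 genes tested in DU145, 16.8% fell and 17.2% rose. NFKBIA, TNFAIP3 and TNFAIP2 fell past an absolute log2 fold change of 1, as did 0.657% of all genes, while 1.37% rose past it. The median of the members was -0.61 and that of all genes 0.0085. With DESeq2 and with limma, too, 0 members rose and 8 fell, and at an unadjusted p below 0.05 also 0 rose. No samples are shared between the PC3 and the DU145 comparison, and in bulk RNA fewer cells that express a gene and less of its RNA per cell cannot be told apart.

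**Figure D3:**
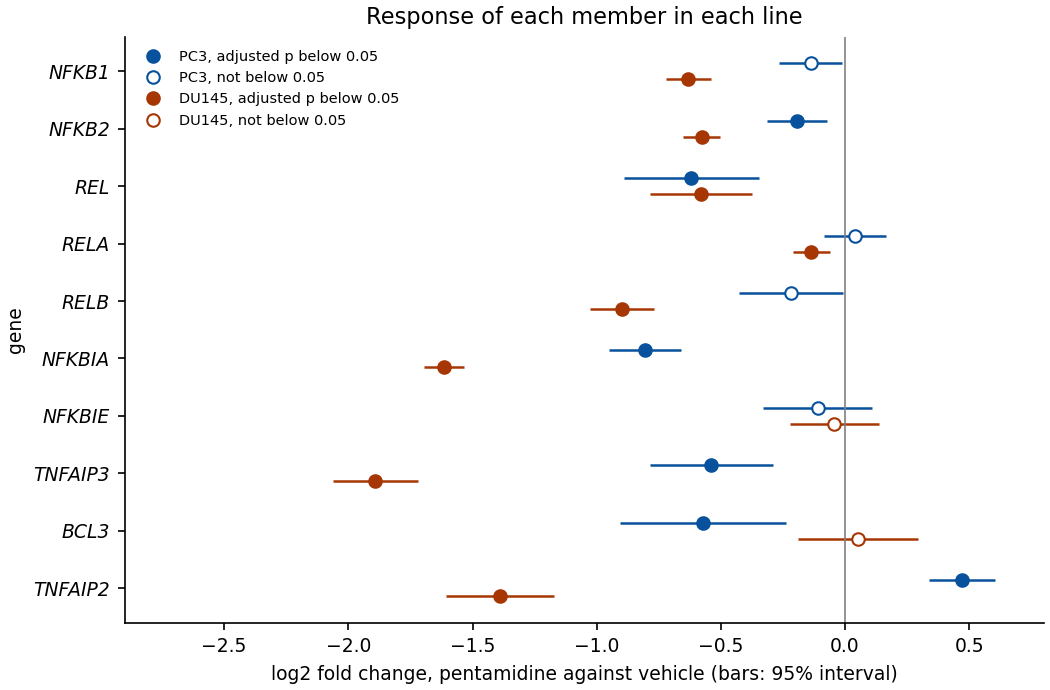
Points give the log2 fold change of each member, pentamidine over vehicle, in PC3 (blue) and DU145 (red-brown), with 95% intervals as bars, filled where the adjusted p was below 0.05. In DU145 8 points are filled and lie left of 0 (7 with library size alone), and TNFAIP2 is the member with filled points on both sides.

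The subunit genes fell in DU145, all 5 of them, and 2 of the 5 fell in PC3, beside 16.8% and 21.7% of all genes. NFKB1 stood at 106, 103 and 101 CPM in vehicle-treated and 67.5, 67.1 and 64.04 CPM in pentamidine-treated DU145. In PC3 it stood at 68.1, 66.8 and 72.9 CPM with vehicle and 64.1, 61.5 and 62.7 CPM with pentamidine. The treated samples were the lower ones in both lines with no overlap, by a wide margin in DU145 and a narrow margin in PC3. NFKB1 fell by 0.63 on the log2 scale in DU145 (SE 0.046, adjusted p = 9.5e-17), and its log2 fold change of -0.14 in PC3 did not pass (95% interval -0.27 to -0.011, adjusted p = 0.0739). It passed with library size alone (-0.16, adjusted p = 0.0448) and in a fit of all 12 samples (-0.14, adjusted p = 0.0275), with adjusted p of 0.0275 to 0.210 over its alternatives.

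NFKB2, the most abundant subunit transcript per kb in both vehicle groups, stood at 232, 226 and 237 CPM with vehicle and 159, 155 and 147 CPM with pentamidine in DU145. In PC3 its values were 128, 114 and 119 CPM with vehicle and 105, 109 and 99.99 CPM with pentamidine. The groups were apart in both lines. NFKB2 fell by 0.58 in DU145 (SE 0.037, adjusted p = 7.5e-19) and by 0.19 in PC3 (SE 0.058, adjusted p = 0.0117), both on the log2 scale. The call in PC3 was lost without pentamidine-treated sample 3, at -0.16 (adjusted p = 0.0706, range over its alternatives 0.00213 to 0.0706).

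RELB, the partner of p52, had 49.9, 50.01 and 53.3 CPM in vehicle-treated and 26.7, 26.9 and 27.7 CPM in pentamidine-treated DU145. In PC3 the values were 26.7, 20.5 and 24.04 CPM and 21.2, 19.2 and 20.5 CPM. In DU145 the treated samples were close together at little more than the level of PC3, and in PC3 the groups overlapped. RELB fell by 0.90 in DU145 (SE 0.064, adjusted p = 4.5e-17), the largest fall of a subunit gene. In PC3 its log2 fold change was -0.22 (95% interval -0.43 to -0.0091, adjusted p = 0.0858), which passed without vehicle-treated sample 2 (-0.32, adjusted p = 0.0201) and in the fit of all 12 samples (-0.22, adjusted p = 0.0392), with adjusted p of 0.0201 to 0.334 over its alternatives.

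REL was the subunit gene with a like fall in both lines. It stood at 24.7, 18.7 and 22.9 CPM with vehicle and 11.9, 15.5 and 16.3 CPM with pentamidine in DU145. In PC3 it stood at 17.7, 17.4 and 14.2 CPM and 10.5, 9.16 and 12.4 CPM. Each treated sample was below each vehicle sample of its line. REL fell by 0.62 in PC3 (SE 0.13, adjusted p = 8.8e-04) and by 0.58 in DU145 (SE 0.10, adjusted p = 8.8e-06).

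RELA, which encodes the main activating subunit, differed least among the subunit genes. Its values were 192, 186 and 181 CPM with vehicle and 173, 167 and 163 CPM with pentamidine in DU145, and 135, 120.3 and 129 CPM and 130.0, 139.6 and 125 CPM in PC3. The DU145 groups were narrowly apart and the PC3 groups overlapped. RELA fell by 0.14 in DU145 (SE 0.037, adjusted p = 0.00299), a call that was lost with library size alone at -0.086 (adjusted p = 0.0646, range over its alternatives 8.1e-04 to 0.0646). In PC3 its log2 fold change was 0.040 (95% interval -0.084 to 0.16, adjusted p = 0.616), and the sign turned without vehicle-treated sample 2 (-0.0074) or pentamidine-treated sample 2 (-0.0052).

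The make-up of the subunit transcripts can be put as each gene's share of their summed CPM per kb, as a description with no test. RELA made up 28.2% ± 0.790 (mean ± SD, n = 3) in vehicle-treated and 35.9% ± 0.328 in pentamidine-treated DU145, and 33.3% ± 0.123 and 37.01% ± 1.07 in PC3. NFKB2 made up 42.8% ± 0.625 and 40.03% ± 0.633 in DU145, and 38.1% ± 0.620 and 35.98% ± 0.520 in PC3. RELB made up 13.9% ± 0.504 and 10.4% ± 0.473 in DU145, and 11.1% ± 0.838 and 10.3% ± 0.712 in PC3. The share of RELA was thus the larger one after pentamidine in both lines, beside smaller shares of NFKB2 and RELB. NFKB1 ranged from 12.4% ± 0.117 in treated DU145 to 15.7% ± 0.945 in vehicle-treated PC3, and REL stayed under 1.78% in all groups but vehicle-treated PC3, where it had that share.

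Of the inhibitors, NFKBIA and TNFAIP3 fell in both lines and NFKBIE in neither. NFKBIA stood at 224, 223 and 233 CPM in vehicle-treated and 72.9, 72.6 and 73.9 CPM in pentamidine-treated DU145. In PC3 it stood at 80.6, 70.5 and 70.1 CPM with vehicle and 42.3, 40.9 and 43.05 CPM with pentamidine. The treated DU145 samples came to the level of vehicle-treated PC3 (73.1 ± 0.684 and 73.7 ± 5.91 CPM, mean ± SD, n = 3, with no test between these groups), and the treated PC3 samples were the lowest of the 12. NFKBIA fell by 1.62 on the log2 scale in DU145 (SE 0.040, adjusted p = 1.7e-37) and by 0.81 in PC3 (SE 0.069, adjusted p = 5.8e-08), a 3.07-fold and a 1.75-fold difference. Its promoter is the first of those printed above.

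TNFAIP3, which encodes A20, had the largest fall of the 10 in DU145. Its values were 39.4, 38.02 and 37.1 CPM with vehicle and 10.1, 10.3 and 10.1 CPM with pentamidine in DU145 (counts 527, 542 and 539, then 142, 152 and 147). In PC3 they were 14.3, 12.7 and 13.1 CPM and 9.99, 9.01 and 8.50 CPM (counts 212, 196 and 176, then 148, 126 and 126). The high level of vehicle-treated DU145 was thus not seen after the drug, when the 6 treated samples of both lines lay between 8.50 and 10.3 CPM. TNFAIP3 fell by 1.89 in DU145 (SE 0.085, adjusted p = 2.0e-25) and by 0.54 in PC3 (SE 0.12, adjusted p = 0.00133). An antisense gene, AL357060.1, overlaps 1.88% of its exon length, and reads of the pair could be told apart only if strand was counted.

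NFKBIE stayed within the scatter of its samples. In DU145 it stood at 18.5, 21.9 and 20.6 CPM with vehicle and 19.1, 21.1 and 18.3 CPM with pentamidine. In PC3 the values were 27.8, 21.8 and 21.1 CPM and 21.4, 23.4 and 20.6 CPM, with vehicle-treated sample 1 above the rest. The groups overlapped in both lines. Neither log2 fold change passed, -0.044 in DU145 (95% interval -0.22 to 0.14, adjusted p = 0.750) and -0.11 in PC3 (95% interval -0.33 to 0.11, adjusted p = 0.419). The sign turned in PC3 without vehicle-treated sample 1 (0.023), and in DU145 without vehicle-treated sample 2 (0.012) and with library size alone (0.0063).

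BCL3 fell in PC3, and TNFAIP2 moved in opposite directions in the lines. BCL3 stood at 8.16, 6.35 and 7.05 CPM with vehicle and 4.32, 5.08 and 5.06 CPM with pentamidine in PC3 (counts 121, 98 and 95, then 64, 71 and 75). In DU145 it stood at 10.02, 9.40 and 10.1 CPM and 10.4, 10.3 and 9.52 CPM (counts 134, 134 and 147, then 147, 153 and 138). The groups were apart in PC3 and overlapped in DU145. BCL3 fell by 0.57 in PC3 (SE 0.16, adjusted p = 0.00760), and its log2 fold change of 0.052 in DU145 did not pass (95% interval -0.19 to 0.29, adjusted p = 0.779).

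TNFAIP2 was the member with opposite changes. In PC3 it stood at 53.5, 49.6 and 50.6 CPM with vehicle and 74.5, 67.96 and 70.1 CPM with pentamidine (counts 794, 765 and 682, then 1103, 950 and 1039). In DU145 it stood at 19.7, 22.1 and 21.04 CPM and 8.29, 6.82 and 8.63 CPM (counts 264, 315 and 306, then 117, 101 and 125). Every treated PC3 sample was above every vehicle-treated PC3 sample, and every treated DU145 sample was below every vehicle-treated DU145 sample. TNFAIP2 rose by 0.47 on the log2 scale in PC3 (SE 0.063, adjusted p = 1.3e-05) and fell by 1.39 in DU145 (SE 0.11, adjusted p = 1.3e-15). Both directions held under each scaling tried, with log2 fold changes of 0.43 to 0.50 in PC3 and -1.46 to -1.29 in DU145 over all alternatives.

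The responses of the lines were compared directly by the interaction of drug and line over the 12 samples, a comparison that shares all its samples with those above. For 6 members the DU145 change was below the PC3 change, for BCL3 it was above, and for REL, RELA and NFKBIE the test did not pass. Over 15226 genes tested, 10.2% were below and 10.3% above. Past an absolute difference of 1, TNFAIP3 and TNFAIP2 were below and no member above, against 1.71% and 0.906% of all genes. The members' median difference, DU145 minus PC3, was -0.44, and that of all genes 0.0091.

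TNFAIP2 had the widest gap between the lines, a log2 difference of -1.86 (SE 0.12, adjusted p = 2.5e-12), and TNFAIP3 came next with -1.35 (SE 0.14, adjusted p = 2.2e-08). NFKBIA differed by -0.81 (adjusted p = 1.0e-08), RELB by -0.68 (8.4e-05), NFKB1 by -0.49 (9.5e-06) and NFKB2 by -0.38 (1.8e-04). These 6 were the genes with the deeper fall in DU145 or, for TNFAIP2, with opposite changes. BCL3 differed by 0.62 (SE 0.19, adjusted p = 0.0177), and this call was lost without vehicle-treated PC3 sample 1 (0.51, adjusted p = 0.0695) or pentamidine-treated PC3 sample 1 (0.55, adjusted p = 0.0597), with adjusted p of 0.00756 to 0.0695 over its alternatives.

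REL had a difference near 0, 0.039 (95% interval -0.34 to 0.41), whose sign turned without vehicle-treated PC3 sample 1 (-0.024) or 2 (-0.0086), pentamidine-treated PC3 sample 2 (-0.064), vehicle-treated DU145 sample 2 (-0.077) or pentamidine-treated DU145 sample 2 (-0.0080) or 3 (-0.049). NFKBIE had a difference of 0.068 (95% interval -0.23 to 0.36), whose sign turned without vehicle-treated PC3 sample 1 (-0.077) or vehicle-treated DU145 sample 1 (-0.0043). RELA had a difference of -0.18 (95% interval -0.32 to -0.032, adjusted p = 0.0786), which passed without vehicle-treated PC3 sample 1 (-0.22, adjusted p = 0.0116) or pentamidine-treated PC3 sample 3 (-0.21, adjusted p = 0.0469), with adjusted p of 0.0116 to 0.289 over its alternatives. The intervals of REL and NFKBIE reach past 0.3 in at least 1 direction, so a difference of that size could have been missed.

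The wider pathway was described with lists of its other genes, 94 in all, of which 92 were in the table. In PC3, 21 of the 76 genes tested rose, 19 fell and 36 did not pass, with a median of 0.067, beside 21.7% higher and 21.7% lower of all genes. In DU145, 11 of 75 rose, 41 fell and 23 did not pass, with a median of -0.23, beside 17.2% higher and 16.8% lower of all genes. Falls outnumbered rises in DU145, and in PC3 the numbers were close.

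In the signalling machinery of the pathway, rises and falls were mixed. The other IkB genes fell, all 3 in DU145 (NFKBIZ by 1.28, NFKBID by 0.60 and NFKBIB by 0.32 on the log2 scale) and 2 of 3 in PC3 (NFKBID by 0.45 and NFKBIZ by 0.32). Of the IKK complex and its upstream kinases, 2 rose and 2 fell among 10 tested in PC3 (IKBKB 0.36, TAB3 0.28, MAP3K14 -0.45, CHUK -0.26), and 1 rose and 5 fell among 11 in DU145 (MAP3K14 0.21, MAP3K8 -0.64, IKBKE -0.60, TAB3 -0.32). Of all genes 21.7% rose and 21.7% fell in PC3, and 17.2% and 16.8% in DU145, so the IKK counts in PC3 are near the share of all genes. MAP3K14, which encodes the kinase NIK of the non-canonical branch, thus fell in PC3 and rose in DU145, with a difference in response of 0.66 (adjusted p = 9.2e-06). TAB3, which encodes a binding partner of the kinase TAK1, rose in PC3 and fell in DU145, with a difference of -0.59 (adjusted p = 2.9e-04).

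Of the receptor genes, 3 of 9 rose in PC3 and 2 of 8 in DU145, beside 21.7% and 17.2% of all genes, with list medians of 0.30 and -0.060. TNFRSF1A, which encodes the main TNF receptor, rose by 0.67 in PC3 and 0.42 in DU145, and TNFRSF12A, which encodes the receptor of TWEAK, by 0.22 and 0.22. LTBR rose by 0.16 in PC3, and the other 6 receptor genes tested in each line did not pass. Of the adaptors, 2 rose and 4 fell of 15 in PC3, where 21.7% and 21.7% of all genes did, and 1 rose and 7 fell of 15 in DU145, against 17.2% and 16.8%. The deepest fall was that of BIRC3, an anti-apoptotic ubiquitin ligase and NF-kB target, by 1.37 in PC3 (adjusted p = 1.6e-10) and 1.78 in DU145 (2.1e-41). IRAK2, of the interleukin 1 branch, fell by 0.24 and 1.19.

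Among the ubiquitin-editing genes, the RBCK1 rise was the largest in each line. RBCK1 encodes HOIL-1, part of the linear ubiquitin ligase that TNF receptor signalling uses, and had 164, 164 and 172 CPM with vehicle and 509, 484 and 473 CPM with pentamidine in PC3. In DU145 it had 167, 157 and 154 CPM and 313, 295 and 284 CPM. It rose in both lines without overlap, by 1.55 in PC3 (adjusted p = 1.0e-13) and 0.92 in DU145 (2.4e-27). SHARPIN, of the same ligase, rose by 0.21 and 0.24, while OTULIN, which cuts linear chains, fell by 0.35 and 0.33. TNIP1, a partner of A20, fell by 0.82 in DU145. In all, 3 of 10 rose and 1 fell in PC3 (all genes 21.7% and 21.7%), and 4 rose and 2 fell of 10 in DU145 (all genes 17.2% and 16.8%).

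Few ligand genes were expressed well enough to test, 3 in PC3 and 4 in DU145. TNF, both an activator and a target of the pathway, had 47.4, 43.00 and 47.4 CPM with vehicle and 11.98, 10.1 and 11.5 CPM with pentamidine in DU145. In PC3 it had 6.88, 7.78 and 9.57 CPM and 4.79, 3.79 and 3.71 CPM. TNF fell in both lines without overlap, by 2.02 in DU145 (adjusted p = 2.1e-27) and 0.97 in PC3 (2.3e-04). In DU145 LTB also fell, by 1.71 (adjusted p = 3.9e-12), as did TNFSF14 by 2.36 on few counts (2 to 23), and TNFSF12, which encodes TWEAK, rose by 0.64 (adjusted p = 2.0e-04). IL1B rose by 0.68 in PC3 (adjusted p = 0.0453), also on few counts (19 to 40).

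**Figure D4:**
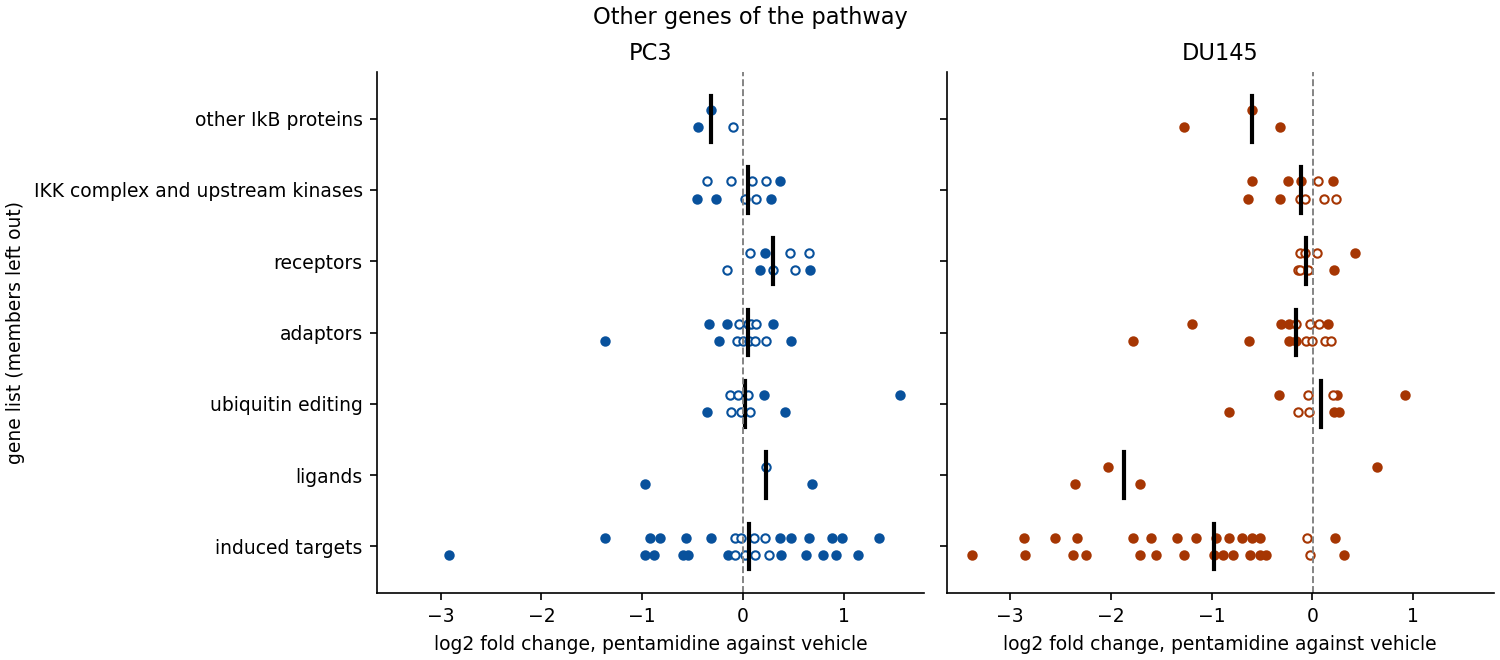
Points give the log2 fold change, pentamidine over vehicle, of the genes of each pathway list other than the members, filled where the adjusted p was below 0.05, with a bar at the median of the list and a dashed line at the median of all genes. The median of the induced targets lies at 0.064 in PC3 and at -0.98 in DU145.

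Genes known to be induced by NF-kB mostly fell in DU145, while in PC3 some fell and others rose. The list holds 46 genes, 8 of them members, which leaves 38. In DU145, 25 of the 29 tested fell, 2 rose (BCL2L1 and GADD45B) and 2 did not pass (TRAF1 at -0.020 and CFLAR at -0.057), with a median of -0.98, where 16.8% of all genes fell and 17.2% rose. In PC3, 11 of 30 fell, 11 rose and 8 did not pass, with a median of 0.064, where 21.7% of all genes fell and 21.7% rose. Past an absolute log2 fold change of 1, 14 fell in DU145 (0.657% of all genes), and 2 fell and 2 rose in PC3 (1.31% and 3.44%). The interaction put 20 of 32 lower in DU145 than in PC3, and the other 12 did not pass, with a median difference of -0.96, where 10.2% of all genes were lower.

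CXCL8, the gene of the neutrophil attractant interleukin 8, had the deepest fall in DU145, from 56.5, 58.4 and 60.3 CPM with vehicle to 6.45, 4.32 and 5.87 CPM with pentamidine. In PC3 it had 126, 139 and 131 CPM and 116, 121 and 119.6 CPM. It fell by 3.38 on the log2 scale in DU145 (adjusted p = 1.7e-35) and by 0.14 in PC3 (0.0405), a slight fall that left PC3 at a high level, and the responses differed by -3.24 (7.8e-18). CSF3 fell by 2.86 in DU145 and 0.82 in PC3, and BCL2A1, an anti-apoptotic gene, by 2.85 and 0.92. CD83 fell by 0.89 and 0.98. CSF2 fell by 2.92 in PC3 (counts 42, 77 and 51 with vehicle, 6, 7 and 9 with pentamidine) and was too low to test in DU145.

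IL6 shared the opposite changes of TNFAIP2. Its levels in PC3 were 173, 216 and 173 counts with vehicle and 376, 461 and 397 counts with pentamidine, and in DU145 593, 594 and 686 counts and 121, 144 and 101 counts, at like depth. IL6 rose by 1.15 in PC3 (SE 0.11, adjusted p = 3.0e-07) and fell by 2.38 in DU145 (SE 0.092, adjusted p = 1.7e-28), with no overlap in either line and a difference in response of -3.52 (1.1e-15). CCL20, a chemokine gene, likewise rose by 0.98 in PC3 and fell by 2.33 in DU145, a difference of -3.32 (7.4e-16). PTGS2, which encodes cyclooxygenase 2, rose by 1.35 in PC3 (adjusted p = 4.6e-05) and was too low to test in DU145 (counts 12, 10 and 9, then 7, 7 and 2).

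Counted over genes tested in both lines, 5 of the 10 members passed in both, 4 of them lower in both (NFKB2, REL, NFKBIA and TNFAIP3) and TNFAIP2 higher in PC3 and lower in DU145. Among the 27 other induced targets, 18 passed in both, of which 10 were lower in both, 2 were higher in both and 6 (CCL20, CXCL2, IER3, IL6, LIF and PLAU) were higher in PC3 and lower in DU145. These last 6 are 22.2% of the 27, while over all 13125 genes tested in both lines 1.33% were higher in PC3 and lower in DU145 and 9.62% were lower in both.

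**Figure D5:**
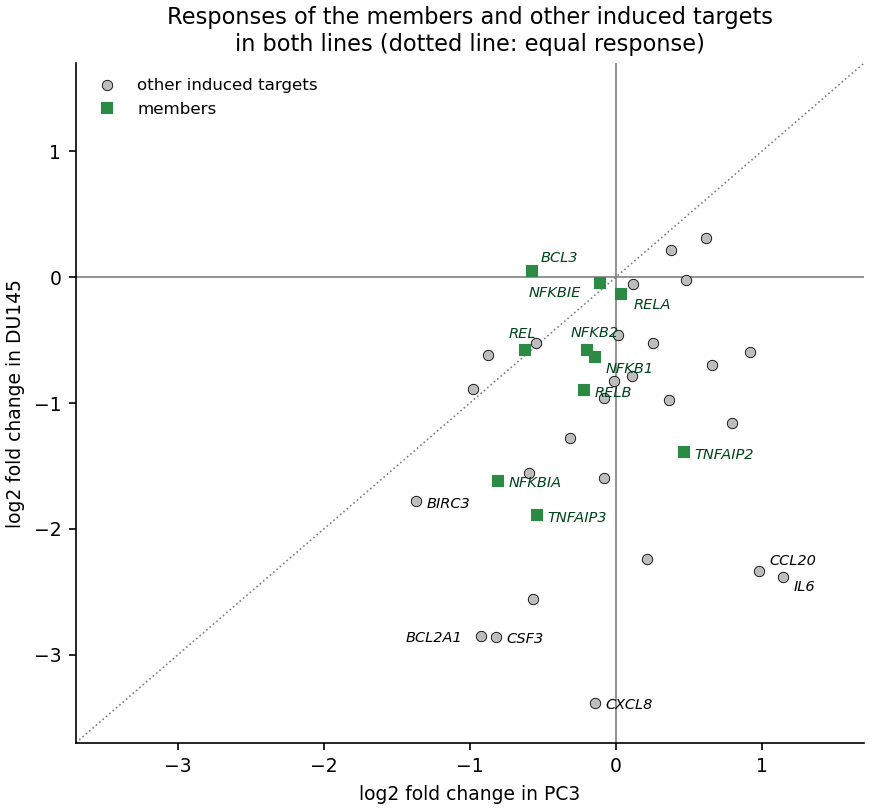
Each point is a member (green square) or another induced target (grey circle), placed by its log2 fold change, pentamidine over vehicle, in PC3 on the horizontal axis and in DU145 on the vertical axis. TNFAIP2, IL6 and CCL20 lie right of 0 and below 0, and NFKBIA, TNFAIP3 and BIRC3 lie left of 0 and below the dotted line of equal response.

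The genes with levels most like those of the members were sought by Pearson's r of log2 CPM over the 12 samples, among 15226 genes, for the 3 members with the largest mean fall of those that passed in both lines. For TNFAIP3 they were the complement gene C3 (r = 0.994), NFKB1 (0.987) and NFKBIZ (0.971). For NFKBIA they were SLC25A32 (0.985), AC008760.2 (0.984) and BIRC3 (0.983). For REL they were BIRC6 (0.964), OPA1 (0.954) and MYO6 (0.952). The 12 samples fall into 4 groups of 3, so such values describe the pattern over the groups and are not a test.

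These results have limits. Transcript levels were measured at a single dose and time, so they do not show NF-kB protein, its place in the cell, its binding to DNA or the order of events. With 3 samples a group, small differences such as those of NFKB1 and RELB in PC3 could fall either side of the limit. Whether the samples of a group were separate cultures was not given in the sources used here. Reads of REL that also fall on the overlapping transcript may have been shared or dropped, to an unknown extent. The lists of pathway genes were written from general knowledge, and with earlier results of these data known. Their counts beside the shares of all genes are therefore a description and not an independent test.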

How the data were processed

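The counts per gene used here were the values that the authors deposited. According to the submitters' processing notes, reads were aligned to GRCh38 with HISAT2 2.1.0 and compared with DESeq 1.18.1. The counting program, annotation release and strand setting were not given in the sources used here. After 44 lines of overflowing text were left out, 33595 entries remained. Merging entries of the same name and counts gave 32077, called genes here, and entries of the same name with different counts were kept apart. The authors' comparison tables, which hold fold changes and p-values, and a table named FPKM were not used.

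Counts were scaled by TMM, filtered with filterByExpr (minimum count 10) and tested with edgeR 4.0.16 (quasi-likelihood) in R 4.3.3. P-values were adjusted by Benjamini and Hochberg over all genes, with 0.05 as the limit, or 0.05 and an absolute log2 fold change above 1. The p-values measure spread between samples that may be technical repeats. Alternatives were RLE scaling, library size alone, removal of mitochondria-encoded genes, no filter, at least 10 counts in every sample, a replicate block, a fit of all 12 samples, DESeq2 1.42.0, limma 3.58.1 on log2(CPM + 1) and leaving out each sample. Promoters came from RefSeq GRCh38.p14 and gene lengths from GENCODE 29. The calculations were tested on simulated data.

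The genes and lists were chosen with earlier results of these data known. Genes named from a list were, per list, line and direction, up to 3 with the largest absolute log2 fold change at an adjusted p below 0.05. Genes most like a member were the 3 of highest Pearson's r for up to 3 members with the largest mean change passing in both lines. TRAF1, CFLAR, CXCL2, IER3, LIF and PLAU were named after their values were seen, to complete small counts.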

Additional observations from a re-analysis of the deposited data

Results flagged for a closer look

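The responses of 7 members differed between the lines by the test of the interaction of drug and line with edgeR over the 12 samples, 6 of them lower and 1 higher in DU145, beside 10.2% and 10.3% of all genes. On the log2 scale, the response in DU145 minus that in PC3 was -0.49 for NFKB1, -0.38 for NFKB2, -0.68 for RELB, -0.81 for NFKBIA, -1.35 for TNFAIP3 and -1.86 for TNFAIP2. For BCL3 it was 0.62. The adjusted p-values ran from 2.5e-12 (TNFAIP2) to 0.0177 (BCL3). TNFAIP2 had all 3 treated samples above the vehicle samples in PC3 and all 3 below them in DU145.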

How the results depend on the processing

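With an absolute log2 fold change above 1 also required, the members that rose and fell numbered 0 and 0 in PC3, in place of 1 and 5, and those that fell in DU145 3, in place of 8. In vehicle-treated cells 3 members were lower in PC3, in place of 8, and for the difference in response 0 were above and 2 below, in place of 1 and 6. The induced targets, members among them, that rose and fell then numbered 2 and 2 in PC3, in place of 12 and 15, and 0 and 17 in DU145, in place of 2 and 31. This follows from the stricter limit itself.

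With library size alone, 2 members in place of 1 were higher in vehicle-treated PC3, NFKBIE being the addition, and the log2 fold change of NFKBIE in DU145 turned to 0.0063. The cause was not tested. This scaling moved the median of all genes to -0.014 in PC3, 0.058 in DU145, 0.069 between the vehicle groups and 0.077 for the difference in response.

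Leaving out each sample in turn, the members whose response was higher in DU145 numbered 0 to 1, with 0 without vehicle-treated or pentamidine-treated PC3 sample 1. Those lower in DU145 numbered 6 to 7. The members that fell numbered 4 to 6 in PC3. In a fit of all 12 samples they numbered 7, with NFKB1 and RELB added, and with library size alone 6, with NFKB1 added.

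Signs turned for results that did not pass. In PC3, NFKBIE ran from -0.18 to 0.023, the latter without vehicle-treated sample 1, and RELA came to -0.0074 without vehicle-treated sample 2 and -0.0052 without pentamidine-treated sample 2. In DU145, NFKBIE ran from -0.11 to 0.012, the latter without vehicle-treated sample 2. The difference in response of REL came to -0.024 and -0.0086 without vehicle-treated PC3 samples 1 and 2, -0.064 without pentamidine-treated PC3 sample 2, -0.077 without vehicle-treated DU145 sample 2, and -0.0080 and -0.049 without pentamidine-treated DU145 samples 2 and 3, and was at most 0.16. That of NFKBIE was at most 0.14 and came to -0.077 without vehicle-treated PC3 sample 1 and -0.0043 without vehicle-treated DU145 sample 1. These settings rest on fewer samples.

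With a replicate block in the model, which treats samples of the same number as paired, 1 member rose and 5 fell in PC3, 0 rose and 8 fell in DU145, 1 was higher and 8 lower in vehicle-treated PC3, and 1 was above and 6 below for the difference in response. Of the induced targets, 12 rose and 14 fell in PC3, and 2 rose and 31 fell in DU145. After removal of the group means, samples of the same number had r of -0.073 to 0.026 between vehicle and drug within a line. Between the vehicle groups r was -0.013 to 0.039. No shared deviation was thus seen, but with 3 samples a group this cannot show whether samples were handled as pairs.

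Between DESeq2, limma, RLE scaling, the filters and removal of mitochondria-encoded genes, the directions of NFKBIA, TNFAIP3 and TNFAIP2 in each line held, with log2 fold changes over all alternatives of -0.84 to -0.74 and -1.63 to -1.57, -0.61 to -0.49 and -1.91 to -1.80, and 0.43 to 0.50 and -1.46 to -1.29 in PC3 and DU145. BCL3 had the lowest count of any member in any sample, 64, and an effect of depth on its results was not tested.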
